A study of Rattus norvegicus with 6 samples.

Results

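The axon injury and regeneration response genes examined here are Atf3, Jun, Fos, Stat3, Sox11, Klf4, Klf6, Klf7, Gap43 and Sprr1a, a set of 10 chosen by name for their known part in injured sensory neurons, with earlier results of these data in view. Their CpG sites were found in the authors' annotated table, which assigns each site to the nearest annotated transcript start. Of the 10 genes 6 had sites there, 44 of the 32674 nuclear sites in all: Klf4 had 12, Gap43 had 10, Klf6 had 9, Sox11 had 6, Fos had 4 and Atf3 had 3. Jun, Stat3, Klf7 and Sprr1a had none and are not analysed further. A further 134 positions with 10 or more reads in every library lay within 2 kb of these sites and were added from the files of the single libraries.

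DNA methylation was measured by reduced representation bisulfite sequencing, which reads fragments cut by the enzyme MspI at CCGG and gives, at each CpG, the percent of reads that kept a cytosine. The tissue was the dorsal root ganglion (DRG), the seat of the sensory neuron cell bodies, of male Sprague-Dawley rats aged 8 to 9 weeks and weighing about 220 g. In the SNL group (spinal nerve ligation, n = 3) a ligature was tied around the spinal nerves L5 and L6 on the left, a model of neuropathic pain. In the Sham group (n = 3) the labels place an operation without a ligature on the other side of the body, so that libraries of both groups may share an animal, and both groups were sampled 3 weeks after surgery. The labels do not say that the libraries came from separate animals or how many ganglia each holds, so p-values reflect only library-to-library variation, part of which may be technical. Coverage summed over the listed CpG cytosines ranged from 27247702 to 34293779 per library, and a read over several CpGs counts several times in it. A ganglion holds neurons, satellite glia, Schwann cells, immune, fibroblast and vessel cells, and in such bulk DNA a change in methylation within a cell type and a change in the mix of cell types cannot be told apart. The files hold methylation and not expression, so the tissue label could not be checked against the expression of its markers. Mean methylation over all annotated sites was 68.2%, 67.1% and 66.7% in SNL 1 to 3 and 67.8%, 68.4% and 68.6% in Sham 1 to 3. Over the 44 sites of the injury-response genes it was 58.5%, 57.4% and 57.2% after SNL and 57.3%, 58.4% and 58.1% after Sham, and these groups overlapped.

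When a peripheral nerve is damaged, kinase signals from the axon and loss of target-derived factors reach the neuronal nucleus and switch on a set of transcription factors. Atf3, Jun and Fos belong to the basic leucine zipper factors, which bind DNA as dimers, and Atf3 is widely used as a marker of injured sensory neurons. Stat3 carries the signal of cytokines that act through the receptor subunit gp130, Sox11 is a SoxC factor of developing and regenerating neurons, and of the Krüppel-like factors Klf6 and Klf7 favour axon growth while Klf4 restrains it. Gap43, a growth cone phosphoprotein, and Sprr1a, a small proline-rich protein, are products associated with regrowing axons. CpG islands at gene starts are mostly unmethylated in somatic cells, and methylation there goes with silencing, whereas CpGs between genes are mostly methylated.

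The stretches just before the starts of Sox11 and Klf4 are shown because the libraries measured CpGs in them, at low levels in both groups. The letters are those of RefSeq promoter sequences on GRCr8, written 5′ to 3′ in the direction of the gene, with the CpGs measured here in capitals. The measurements are on rn4, so a CpG was matched only by its distance from the start, allowing a shift of at most 1 base. All 3 measured Sox11 positions and 7 of 8 measured Klf4 positions of these windows fell on a CpG of the sequence. The Sox11 stretch (GRCr8 chr6:49738795-49739044, minus strand) holds 14 CpGs, of which 3 were measured, and the Klf4 stretch (GRCr8 chr5:75078593-75078842, minus strand) holds 8, of which 4 were measured. The first 30 bases of the Klf4 transcript (GRCr8 chr5:75078563-75078592, minus strand) hold 2 CpGs, both measured.
Sox11 upstream: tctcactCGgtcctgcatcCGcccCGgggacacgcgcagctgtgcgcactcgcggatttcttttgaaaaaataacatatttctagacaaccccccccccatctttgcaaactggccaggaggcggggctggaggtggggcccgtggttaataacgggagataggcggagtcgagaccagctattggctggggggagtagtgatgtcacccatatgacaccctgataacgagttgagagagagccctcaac
Klf4 upstream: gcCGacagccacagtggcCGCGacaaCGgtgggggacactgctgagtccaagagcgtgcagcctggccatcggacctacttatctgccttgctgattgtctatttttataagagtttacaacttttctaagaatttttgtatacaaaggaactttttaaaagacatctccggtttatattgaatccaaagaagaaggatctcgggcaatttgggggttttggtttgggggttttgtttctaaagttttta
Klf4 first 30 bases: atcttCGttgacttCGgggtttgggtaccc
Promoter windows of 300 bases, from 250 before to 50 after the start, were available for 6 of the 10 genes. The MspI letters CCGG, which read the same on both strands, occurred 3 times in that of Stat3, 2 times each in those of Sox11 and Klf6, 1 time in that of Klf4 and 0 times in those of Klf7 and Sprr1a, while 51.4% of 33469 rat promoter windows of this length hold them. The windows of Klf6, Sox11, Stat3, Klf7 and Klf4 hold 23, 20, 16, 16 and 11 CpGs against a median of 7 over all windows, and that of Sprr1a holds 1. The AP-1 letters TGANTCA, the motif bound by Jun and Fos dimers, which also read the same on both strands, occurred 2 times in the Sprr1a window and in none of the other 5, against 7.3% of all windows. These matches describe the letters only.

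None of the 44 sites differed between SNL and Sham at an adjusted p under 0.05, the level that is named a call here. The test was a logistic regression of read counts with an overdispersion moderated across sites by limma, adjusted by Benjamini-Hochberg over all 32674 sites, and it called 441 of them, 1.35% (387 lower after SNL, 1.18%, and 54 higher, 0.165%). The lowest adjusted p among the 44 was 0.175. At an unadjusted p under 0.05 there were 5 of 44, against 13.1% of all sites. The same F test without moderation and limma on logit values each called 0 of all 32674 sites (0%), so that their count of 0 among the 44 carries no information. At an unadjusted p under 0.05 the former had 1 of the 44, against 6.02% of all sites, and the latter 7, against 10.7%. On simulated data of this depth the moderated test recovered 57% of 20-point changes and 4% of 10-point changes, 61 in all, beside 11 false calls, a larger share than the nominal level. A call is thus less certain than its adjusted p, and a change of about 10 points was mostly not detectable. The observed differences all had a size of 9.76 percentage points or less, and their median within-group SD was 2.05 points, against 2.16 points for the whole annotated table.

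The SNL mean was below the Sham mean at 25 of the 44 sites and above it at 19, where 61.3% of all sites were lower. The libraries of the groups did not overlap at 10 of 44 sites, 6 lower and 4 higher after SNL, against 17.8% of all sites, 13.2% lower and 4.64% higher. The median difference was -0.31 points over the 44 sites and -0.55 over all annotated sites. Levels, in contrast, spanned nearly the whole scale: 10 sites had a mean under 10%, 23 a mean over 80% and 8 a mean from 20% to 80%. Distance from the start went with the level, since the 7 sites flagged as promoter and CpG island, those of Atf3 and Klf4, had a median of 2.24% in Sham and 2.02% in SNL, and the 35 sites over 10 kb from a start one of 87.1% and 83.1%. The median of the differences site by site was -0.28 points over those 35, so the gap between the group medians is not a difference of that size at the sites. The same classes over all genes had medians of 1.4% and 1.53% (787 sites) and of 86.4% and 84.9% (23760 sites, with a median difference of -0.79 points). A site far from a start is assigned to the gene only by proximity, and 19 of the 44 lay over 100 kb away.

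**Figure D1:**
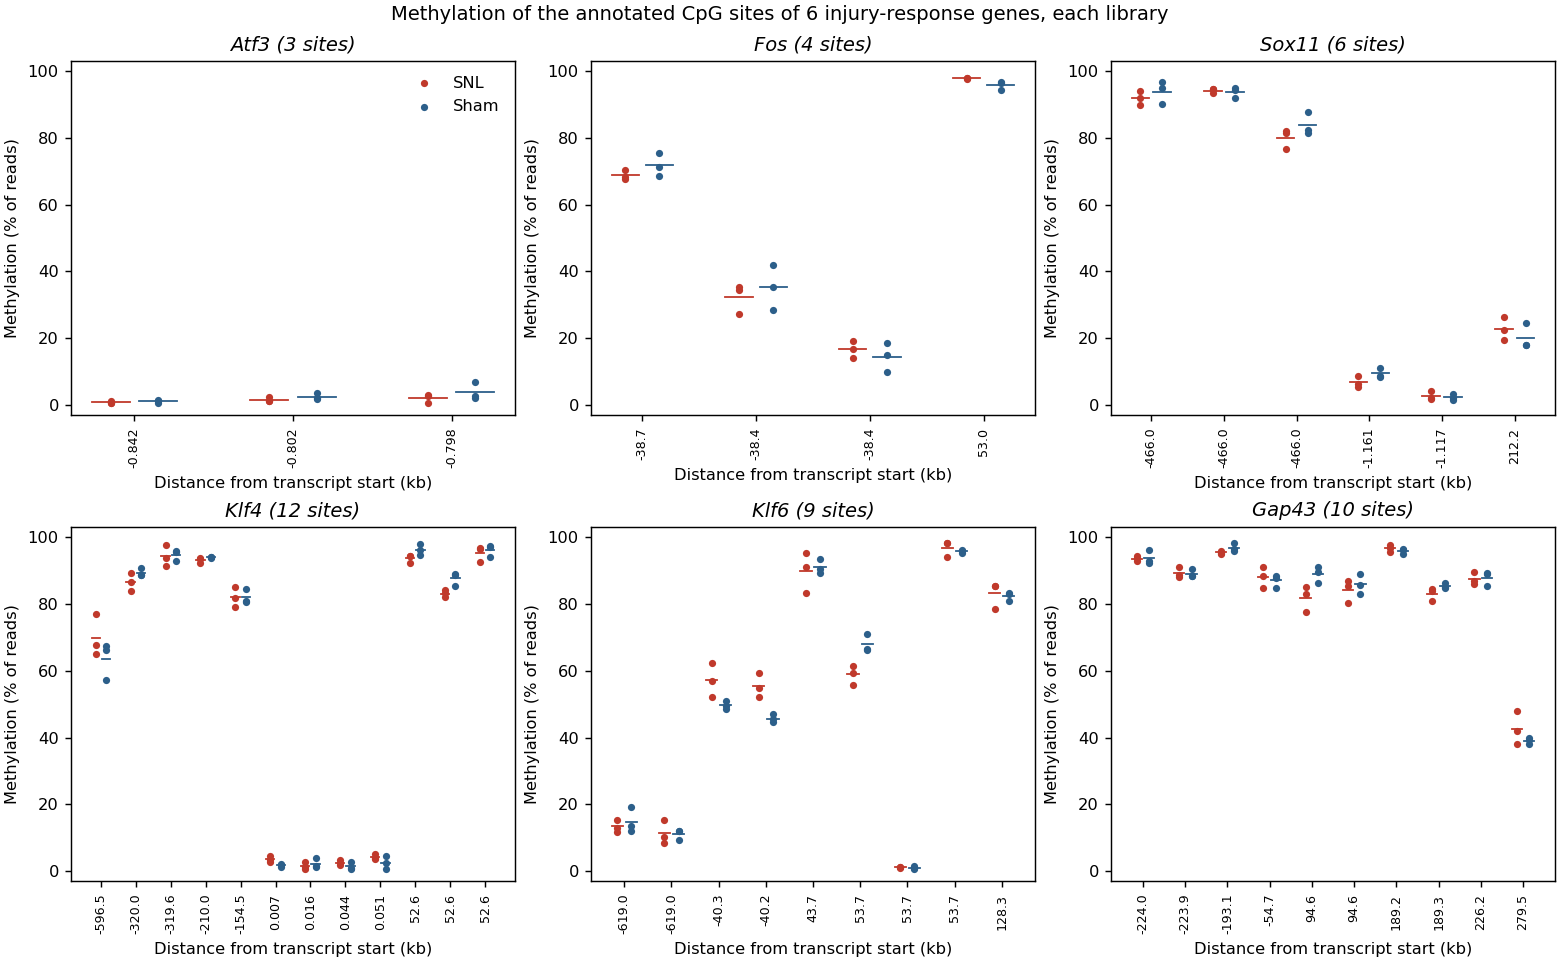
Methylation in percent of reads (vertical axis, linear) at each annotated CpG site of Atf3, Fos, Sox11, Klf4, Klf6 and Gap43, ordered by distance from the transcript start in kb (horizontal axis, not to scale, negative upstream). Points are single libraries, SNL in red and Sham in blue, and bars are the means of 3 libraries. Sites next to the starts of Atf3, Klf4 and Sox11 lie under 12% in every library, and the Klf6 sites 40.2 and 40.3 kb upstream show SNL above Sham.

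The positions near the starts of Atf3, Klf4 and Sox11 were little methylated in both groups. Positions were collected within 2 kb of the annotated sites and not around the starts. The farther parts downstream of the Atf3 and Sox11 starts were therefore not searched. Of the positions collected, 92 lay within 2 kb of the Atf3, Klf4 and Sox11 starts, and at 88 of them both group means were under 10%. Downstream of the start lay 0 of the Atf3, 8 of the Klf4 and 22 of the Sox11 positions. The Atf3 positions, 37 from 1931 to 755 bp upstream, had pooled levels of 2.45%, 2.45% and 2.37% in SNL 1 to 3 and 2.83%, 3.37% and 2.66% in Sham 1 to 3, so the groups did not overlap, with means of 2.42% ± 0.05 and 2.95% ± 0.37 (SD, n = 3). The Klf4 positions, 23 from 1546 bp upstream to 189 bp downstream, had 1.71%, 2.83% and 2.38% in SNL and 2.35%, 1.07% and 2% in Sham, which overlapped. The Sox11 positions, 32 from 1160 bp upstream to 799 bp downstream, had 3.27%, 4.56% and 3.41% in SNL and 3.87%, 3.41% and 4.3% in Sham, which overlapped as well. Positions within a read share reads, so these pooled levels are descriptions and were not tested. The highest group means were 19.1% at Atf3, 12.1% at Sox11 and 7.49% at Klf4, and coverage of single positions went down to 10 reads, where 1 read is worth 10 points.

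**Figure D2:**
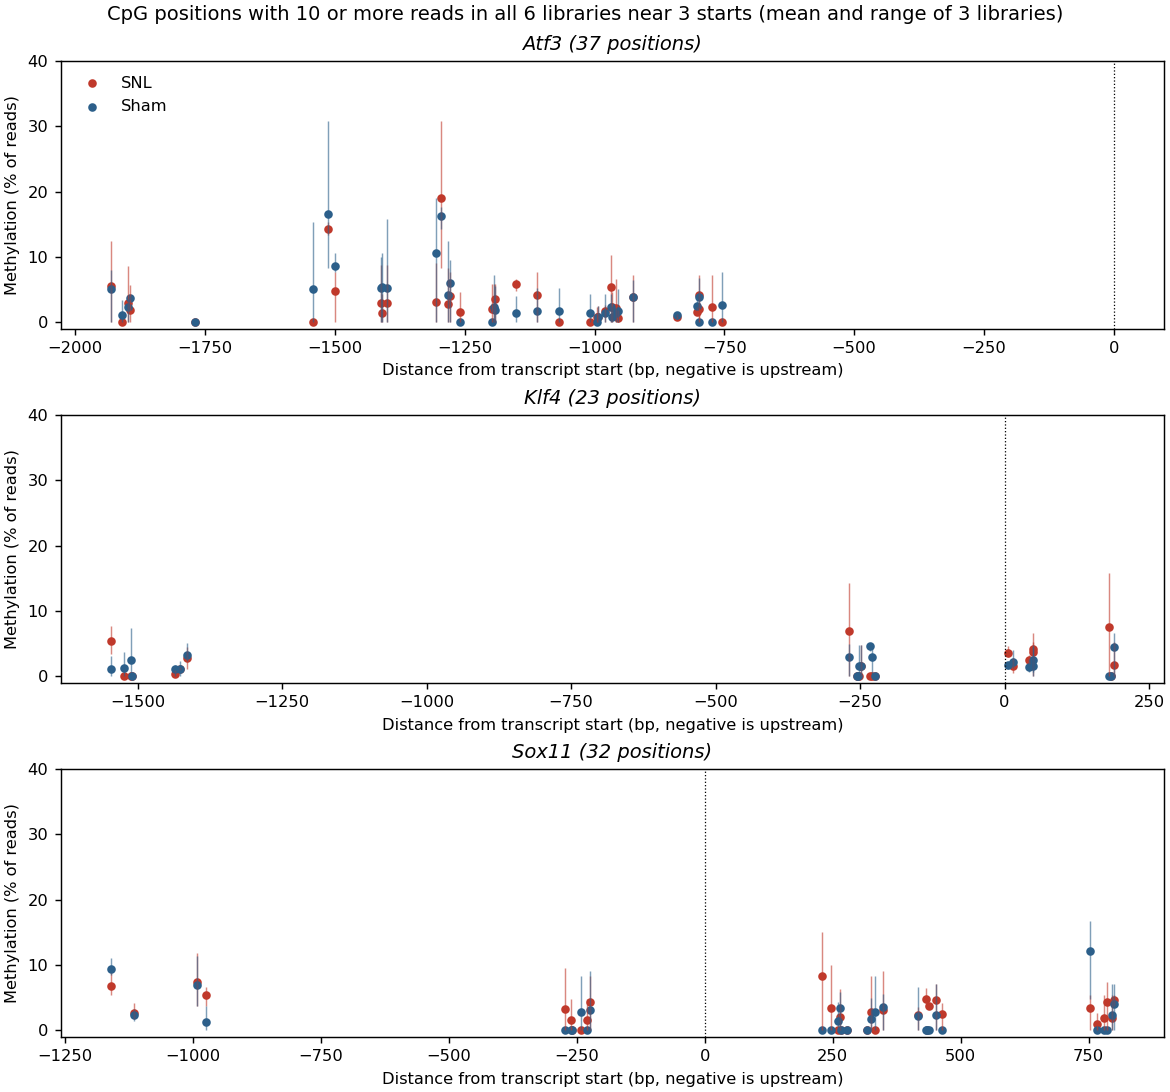
Methylation in percent of reads (vertical axis, linear from 0 to 40) against distance from the transcript start in bp (horizontal axis, negative upstream, dotted line at the start) for the 37 Atf3, 23 Klf4 and 32 Sox11 positions. Points are group means, SNL in red and Sham in blue, and vertical lines the range over 3 libraries. Both groups stay near the floor, with a highest group mean of 19.1% upstream of Atf3.

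Among the 134 further positions within 2 kb of the annotated sites, whose coverage in the shallowest library had a median of 18 reads, 0 were called. The test as designed called 0 of all 424646 such sites (0%), with 3.07% at an unadjusted p under 0.05, and on simulated data of this table it recovered 0% of changes of 20 or 40 points, so this count says nothing about the genes. When the moderation was refitted from sites with at least 12 reads of the rarer state, an alternative chosen after seeing the data, 958 sites (0.226%) were called over the whole table and again 0 of the 134, with 5 at an unadjusted p under 0.05 against 6.66% of all sites. In simulated data this refit recovered 40% of 40-point and 8% of 20-point changes, 48 in all, beside 20 false calls. The changes simulated in this table were also placed only at sites of intermediate level. The groups did not overlap at 15 of the 134 positions, against 10.2% of all sites. SNL was the lower group at 59 of the 134, but some positions were at 0 in every library and count for neither group. No share over all such sites was counted for this.

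Of the leucine zipper factors, Atf3 was measured upstream of its start and Fos only at a distance. Atf3, a stress-induced factor, had 3 annotated sites on chromosome 13, 798, 802 and 842 bp upstream of the start of NM_012912, in a promoter and CpG island. At the nearest, position 107224641 (rn4), the level was 2.56%, 0.6% and 2.89% in SNL 1 to 3 and 2.79%, 6.8% and 2.16% in Sham 1 to 3, on 139 to 215 reads. The groups overlapped and Sham 2 stood highest, and the difference was -1.9 ± 1.62 points (SE; adjusted p = 0.633). The other Atf3 sites had means of 1.59% and 0.81% after SNL and 2.48% and 1.15% after Sham. Summed over the 3 sites, Atf3 had 1.49%, 1% and 1.93% in SNL and 2.01%, 3.37% and 2.15% in Sham. Every SNL library was thus below every Sham library, by 1.04 ± 0.51 points between the means, and the adjusted p over all genes was 0.55. The reads of these sites also enter the pooled Atf3 levels given above, so the separation there is not an independent one. The share of all gene sums without overlap was not counted.

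Fos, an immediate early gene switched on by neuronal activity and injury, had 4 sites on chromosome 6. The one nearest the start of NM_022197, at 109520785 and 38.4 kb upstream outside any annotated gene feature, had 19.1%, 14.2% and 16.7% in SNL and 10%, 15% and 18.4% in Sham, on 114 to 169 reads. These values overlapped (difference 2.18 ± 2.83 points, adjusted p = 0.832). The site with the lowest p, at 109612111 and 53 kb downstream, had 97.8%, 97.9% and 97.9% in SNL and 94.5%, 96.9% and 96.4% in Sham. SNL was above Sham in every library there, by 1.95 ± 0.73 points, with an adjusted p of 0.539. The 2 remaining Fos sites, both upstream, had means of 68.8% and 32.3% after SNL and 71.7% and 35.3% after Sham. The 3 upstream sites lie within 366 bp and range from 14.5% to 71.7% in Sham, a wide span of levels over a short stretch. Summed over its sites, Fos had 57.9% ± 0.66 after SNL and 60.9% ± 2.24 after Sham (SD, n = 3) without overlap, and an adjusted p of 0.501.

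Sox11, a high-mobility-group factor that is active in embryonic neurons and after nerve injury, had 2 annotated sites in a CpG island shore on chromosome 6, upstream of the start of NM_053349. The nearer, at 45144503 and 1117 bp upstream, had 2.03%, 4.22% and 1.66% in SNL and 2.17%, 1.45% and 3.3% in Sham on 241 to 308 reads, and the groups overlapped (difference 0.33 ± 0.96 points, adjusted p = 0.91). The other, 1161 bp upstream at 45144547, had 5.41%, 8.79% and 6.22% in SNL and 11.1%, 8.39% and 8.82% in Sham. It was the Sox11 site with the lowest p, with a difference of -2.63 ± 1.32 points and an adjusted p of 0.521, and SNL 2 lay within the Sham range. The 3 sites 466 kb upstream had means from 80.1% to 94.1% in both groups, and the site 212.2 kb downstream had 22.7% after SNL and 20.1% after Sham. Within the region drawn around the start, 2 positions 6 bp apart, at 45142949 and 45142955, had means of 3.69% and 4.73% after SNL and were listed at 0 in every Sham library, on 15 to 31 reads. Neither was called with the refitted moderation (adjusted p = 0.812 and 0.767 with limma's moderation), and both were picked out after their values were seen.

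Klf4, a zinc finger factor that limits axon growth, had 4 annotated sites within 51 bp downstream of the start of NM_053713 on chromosome 5, in the first exon and in a promoter and CpG island. The site nearest the start, at 73451280 and 7 bp into the transcript, had 2.86%, 3.26% and 4.59% in SNL and 1.11%, 1.94% and 1.99% in Sham on 155 to 271 reads. Every SNL library was above every Sham library, with means of 3.57% ± 0.91 and 1.68% ± 0.49 (SD, n = 3), and the difference of 1.89 ± 0.6 points had an adjusted p of 0.392. The sites 16, 44 and 51 bp into the transcript had SNL means of 1.55%, 2.47% and 4.22% and Sham means of 2.24%, 1.4% and 2.52%, and all 3 overlapped between the groups. The first 2 of these 4 sites are the capital CpGs of the 30 transcript bases printed above.

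The Klf4 site with the lowest p lay 52.6 kb downstream at 73398704, outside the gene, with 83.1%, 82% and 84.1% in SNL and 88.8%, 89% and 85.5% in Sham, on 237 to 284 reads. All SNL values were lower, by 4.66 ± 1.28 points between the means, and the adjusted p was 0.323. A site 21 bp from it had 93.7% ± 1.12 after SNL and 96.3% ± 1.59 after Sham, also without overlap, and another 28 bp away on the other side had 95.3% and 96.2% with overlap. The 5 sites from 154.5 to 596.5 kb upstream had Sham means from 63.6% to 94.8%. Of these the most distant differed by 6.23 ± 4.88 points, with SNL 1 at 76.9% and Sham 1 at 57.1% as the extremes and the other 4 libraries between 64.9% and 67.7%.

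Klf6, an injury-induced factor that promotes axon growth, held the sites that differed most, and they lay on both sides of the gene in opposite directions. The site at 75625371 on chromosome 17, 40.2 kb upstream of the start of NM_031642 and outside annotated gene features, had 54.7%, 52.2% and 59.5% in SNL and 45.4%, 44.7% and 46.9% in Sham, on 190 to 228 reads. Every SNL library was above every Sham library, with means of 55.5% ± 3.7 and 45.7% ± 1.12 (SD, n = 3). The difference of 9.76 ± 2.23 points had an adjusted p of 0.175 in the moderated test fitted with limma. In the authors' deposited table this site has a q of 0.0248, the only one of the 44 under 0.05, where 1484 of all sites (4.54%) have one. Its adjusted p ranged from 0.213 to 0.421 when each library was left out in turn.

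The 3 other positions within 169 bp were also higher in mean after SNL. The annotated site 42 bp away, at 75625413, had 62.4%, 52.2% and 57.1% in SNL and 49.5%, 50.8% and 48.6% in Sham (difference 7.59 ± 3.01 points, adjusted p = 0.358), again without overlap. Of the shallower pair, the position at 75625518 had 57.1%, 54.5% and 60% in SNL and 41.7%, 51.2% and 48.8% in Sham on 35 to 55 reads, and that at 75625539 had 50%, 58.2% and 62.9% against 55.6%, 69.8% and 43.9%. The last of these overlapped widely. The median difference over the 4 positions was 8.68 points.

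On the other side of Klf6, 53.7 kb downstream of the start, neighbouring CpGs were at opposite ends of the scale. The site at 75531444 had 61.5%, 55.8% and 59.4% in SNL and 71%, 66.3% and 66.5% in Sham on 123 to 193 reads, and every SNL library was lower (difference -9.01 ± 2.26 points, adjusted p = 0.278). A site 7 bp from it was at 1.07% ± 0.23 and 1% ± 0.48 (SD, n = 3), and one 22 bp from it at 96.9% and 95.8%. The position at 75531257, on 19 to 26 reads, had 72.7%, 79% and 92.3% in SNL and 60.9%, 68% and 50% in Sham. Its difference of 21.7 ± 7.79 points was the largest of all 178 positions and opposite in direction to that of the deep site, and its adjusted p with the refitted moderation was 0.596. The other Klf6 sites overlapped between the groups, with SNL and Sham means of 89.9% and 91% at 43.7 kb downstream, of 83.1% and 82.4% at 128.3 kb downstream, and from 11% to 14.8% at 619 kb upstream.

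**Figure D3:**
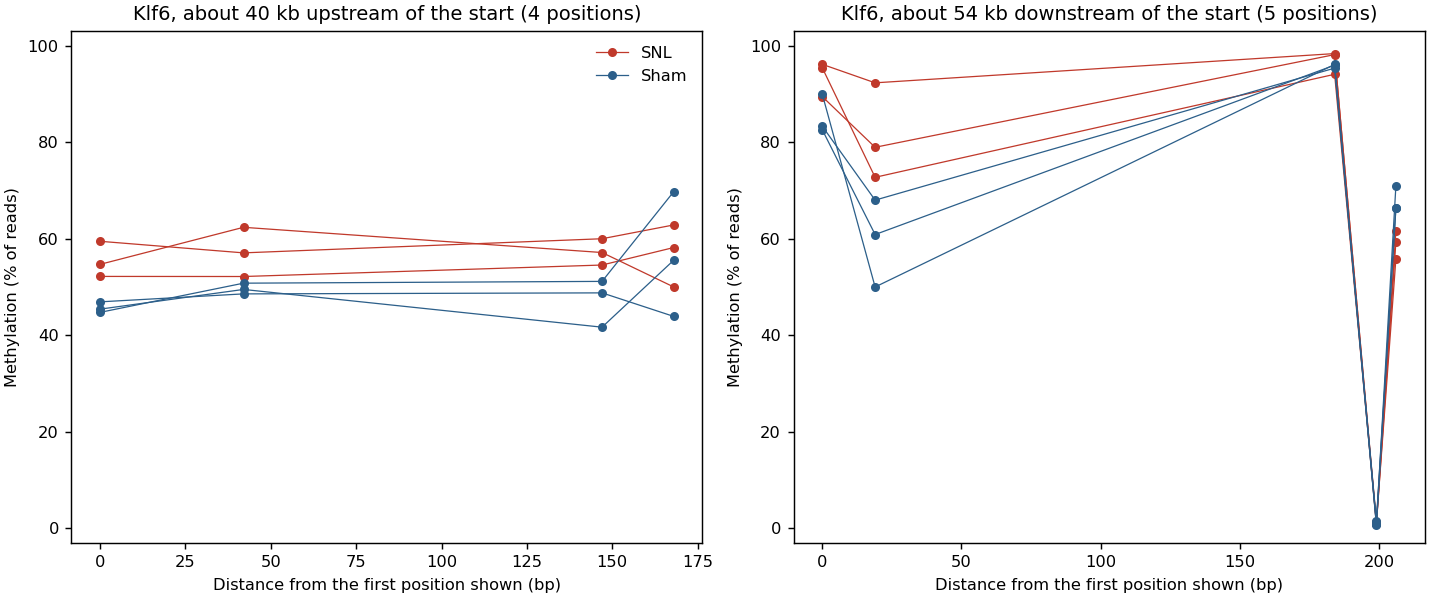
Methylation in percent of reads (vertical axis, linear) in each library, against distance in bp from the first position shown. The left panel holds 4 positions 40224 to 40392 bp upstream of Klf6 and the right panel 5 positions 53.7 to 53.9 kb downstream. Each line joins the values of 1 library, SNL in red and Sham in blue. Upstream, SNL lies above Sham at the first 3 positions; downstream, levels run from 1% to over 95% within 22 bp.

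Gap43, the growth-associated protein of axon tips, had 10 sites on chromosome 11, all far from the start of NM_017195. The nearest, 54.7 kb upstream at 59934370, had 91%, 88.2% and 84.8% in SNL and 87.9%, 84.9% and 88.5% in Sham, which overlapped (difference 0.93 ± 2.08 points, adjusted p = 0.908). The site with the lowest p lay 94.6 kb downstream at 60083670, under an exon flag that can refer to another transcript, and had 85.2%, 83% and 77.5% in SNL and 89.7%, 86.2% and 91% in Sham on 227 to 268 reads. All SNL values were below all Sham values, with means of 81.9% ± 3.96 and 89% ± 2.5 (SD, n = 3). The difference of -7.05 ± 2.7 points had an adjusted p of 0.181, and the site 18 bp away differed by -1.68 ± 2.69 points with overlap. The most distant site lay 279.5 kb downstream, under an intron flag that can likewise refer to another transcript. It was the exception among Gap43 sites with means of 42.6% and 39%, while the other 9 ranged from 81.9% to 96.8%. Of the shallower positions, that at 60215153 had the lowest adjusted p with the refitted moderation, 0.174, with 78%, 82% and 86.1% in SNL and 93.9%, 95.5% and 96.6% in Sham on 43 to 59 reads. The position next to it, which may belong to the other strand of the same CpG since strand is not recorded, had 84.6%, 80.8% and 96.4% against 94.4%, 92.9% and 84.6% and overlapped.

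**Figure D4:**
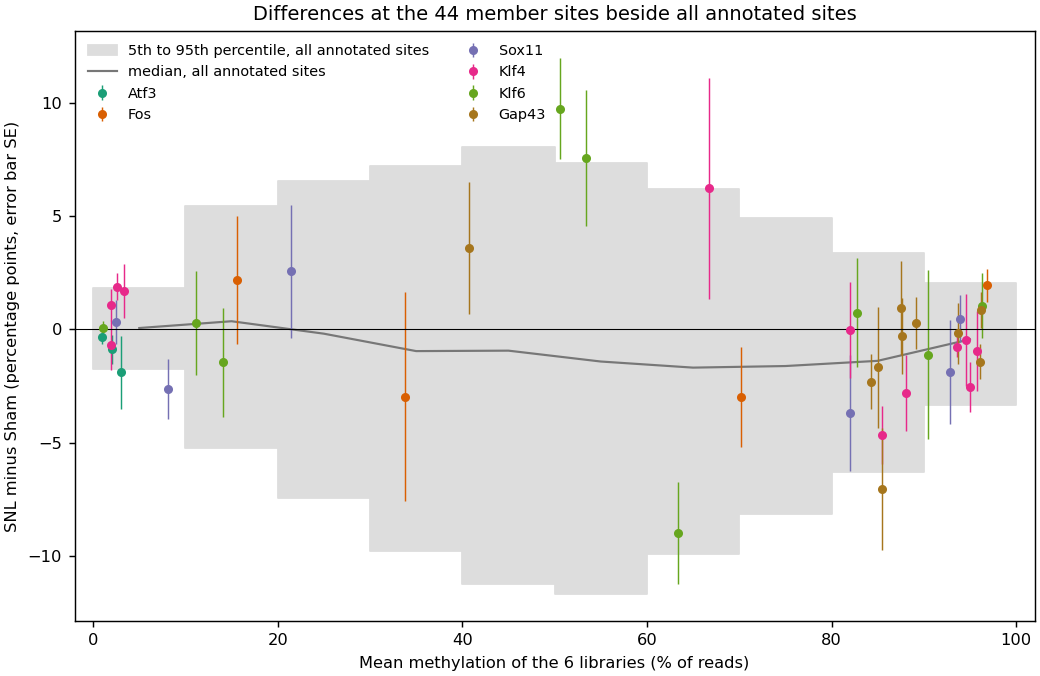
Difference between group means, SNL minus Sham in percentage points (vertical axis, linear, error bars SE), against the mean methylation of the 6 libraries (horizontal axis) for the 44 sites, coloured by gene. The grey band spans the 5th to 95th percentile of all 32674 annotated sites in steps of 10% and the grey line is their median. Of the 44 sites 37 lie in the band and 7 outside it, where about 10% of all annotated sites lie outside by construction. Among the 7 are the upstream Klf6 sites at 9.76 and 7.59 points, where the band ends at 7.36. Some are outside by little, such as a Klf4 site at 6.23 points where the band ends at 6.22. The downstream Klf6 site at -9.01 points lies inside.

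When the read counts of a gene's annotated sites were added up, 0 of the 6 genes were called and 0 had an unadjusted p under 0.05, where 43 of 8016 genes (0.536%) were called and 13.7% passed that unadjusted level. With limma on logit values 0 of the 6 were called, where 0.0749% of all genes were, and 1 had an unadjusted p under 0.05, against 12.9% of all genes. Without moderation 0 of all genes were called, and 0 of the 6 had an unadjusted p under 0.05, against 8.67% of all genes. Shares this low leave a count over 6 genes uninformative. In order of the Sham mean, Gap43 had 86.2% ± 0.68 after SNL and 87% ± 0.66 after Sham (adjusted p = 0.668), Fos the values above, Klf4 58.6% ± 2.18 and 59.4% ± 5.16 (adjusted p = 0.972), and Sox11 48.8% ± 2.44 and 46.8% ± 0.52 (adjusted p = 0.625). Klf6 had 43.4% ± 1.91 and 43% ± 4.15 (adjusted p = 0.955), and Atf3 stood last. Fos and Klf4, and Sox11 and Klf6, were neighbours whose Sham ranges met within their spread, while Gap43 and Atf3 lay apart from all the others. The sums mix near and distant sites, so their order follows which sites were measured. In simulated data the summed test recovered 88% of 20-point and 40% of 10-point changes, 128 in all, beside 8 false calls. These changes were placed only at genes of intermediate level.

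Of the other genes of the injury response, 161 in 6 lists, 99 had annotated sites, 456 in all, and 0 of the 99 were called in the gene sums, with 18 at an unadjusted p under 0.05, where 0.536% and 13.7% of all genes were. Over all annotated sites 1.35% were called, 1.18% lower and 0.165% higher, so most calls of the whole table were lower. Among the sites of the 99 genes 12 were called, all lower after SNL, a share of 2.63%. The lists were drawn up with earlier results of these data known, so this share is not independent of the choice of genes and was not tested. By list, 0 of 51 sites were called in the AP-1 and ATF partners (12 of 18 genes measured), 1 of 20 in the injury kinases (7 of 16 genes), 1 of 80 in the gp130 and JAK-STAT pathway (18 of 30 genes), 1 of 48 in the other KLF factors (9 of 14 genes), 2 of 78 in the other injury transcription factors (17 of 26 genes) and 7 of 179 in the growth and regeneration effectors (36 of 57 genes). The median difference of the gene sums was -0.29 points over the 99 genes and -0.79 over all genes. All 12 called sites lay 8 kb or more from the assigned start.

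Among the signals that reach these factors, the called kinase-list site was that of Spag9, a scaffold of JNK signalling, 8 kb upstream, with 53.3% ± 2.83 after SNL and 64.1% ± 2.93 after Sham (SD, n = 3; adjusted p = 0.0463). Mapk8, which encodes the kinase JNK1, differed by -5.48 ± 2.35 points in the sums (adjusted p = 0.308). In the cytokine list, the called site was that of Il6st, which encodes gp130, 35.8 kb upstream at 43772921 on chromosome 2. It had 83%, 79.6% and 75.9% in SNL and 93.4%, 94.4% and 92.4% in Sham, on 211 to 463 reads. Every SNL library was lower, and the methylation fell by 13.91 ± 2.14 points (adjusted p = 0.000509). Lifr, a partner receptor of gp130, was higher after SNL in the sums by 7.86 ± 2.61 points without overlap, with an adjusted p of 0.156.

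Among transcription factors, Fosb, a partner of the Jun proteins, had 5.53% ± 0.32 after SNL and 3.73% ± 0.32 after Sham (SD, n = 3) over 11 sites without overlap. Its difference of 1.81 ± 0.26 points had an adjusted p of 0.0877, and of 0.0292 when only sites within 10 kb of starts were summed. Crem, a factor that answers cyclic AMP, differed by -1.78 points (adjusted p = 0.5). A Klf12 site 369.4 kb upstream was called at 56.7% ± 3.45 against 67.4% ± 3.51 (adjusted p = 0.0367), and Klf13 differed by -2.16 points in the sums (adjusted p = 0.43). Hif1a, the oxygen-regulated factor, had a called site 131.9 kb upstream that fell by 15.3 ± 1.6 points (adjusted p = 0.0192). Egr2, a factor of myelinating Schwann cells as well as of injury, had one 46.5 kb upstream that fell by 12.84 ± 2 points (adjusted p = 0.0334).

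The 7 calls of the effector list were at 6 genes. Cd44, a hyaluronan receptor, had the largest difference, at an intronic site 17.4 kb downstream on 122 to 179 reads, with 60.1%, 59.2% and 57.8% in SNL and 73.9%, 80.7% and 82% in Sham (-19.79 ± 2.6 points, adjusted p = 0.00855). Nrcam, a neuronal cell adhesion molecule, had 2 called intronic sites, with differences of -10.71 ± 1.13 and -11.14 ± 2.25 points (adjusted p = 0.02 and 0.0424), and in the sums it had 53% ± 2.84 against 62.2% ± 0.88 (adjusted p = 0.0619). Marcks, a relative of Gap43 that binds actin and membrane lipids, had a call 219.3 kb upstream on 1117 to 1667 reads, with 69.6%, 66.5% and 65.7% in SNL and 75.7%, 76.5% and 76.8% in Sham (-9.05 ± 1.23 points, adjusted p = 0.000694). Gfra1, a receptor for GDNF, differed by -9.46 points 351.2 kb downstream. Gadd45g, a stress protein linked to DNA demethylation, differed by -16.28 points 212.9 kb downstream, and Cacna2d1, the calcium channel subunit bound by gabapentin, by -5.67 points 154 kb upstream. The adjusted p of these 3 sites were 0.00961, 0.0262 and 0.0463 in that order. Of the 12 calls 2, those of Il6st and Marcks, were kept without each library in turn, and without Sham 3 the calls of these 2 were the ones kept, so that the other 10 each lost their call without at least 1 library.

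**Figure D5:**
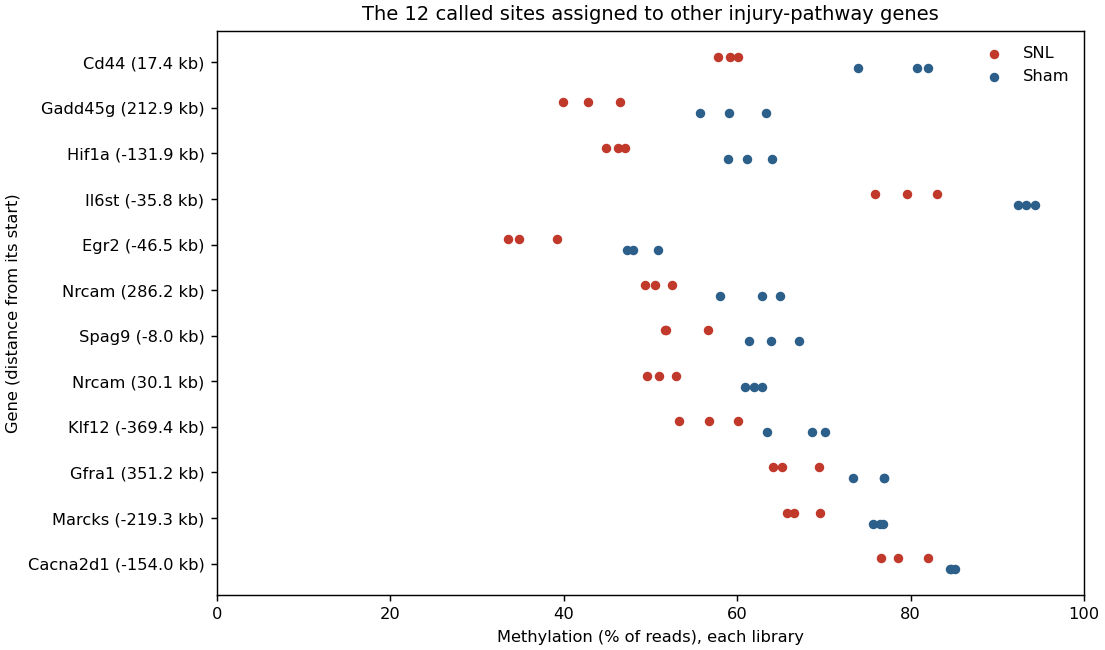
Methylation in percent of reads (horizontal axis, linear) in each library at the 12 called sites assigned to other genes of the injury response, with the distance from the assigned start in kb beside the gene. SNL points are red and Sham points blue. At each site the 3 SNL libraries lie below the 3 Sham libraries, from a difference of -19.79 points at Cd44 to -5.67 points at Cacna2d1.

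Marker genes of the cell types of the ganglion were measured at few sites. Of the neuron list 7 of 12 genes had 37 sites, and 1, a site of the neurofilament gene Nefl, was called lower after SNL. This is 2.7%, where 1.35% of all sites were called and 1.18% were called lower. In the gene sums Nefl, Nefh and Syt1 were lower without overlap, by differences of -4.14 ± 1.21, -3.57 ± 1.47 and -3.99 ± 1.32 points (adjusted p = 0.162, 0.196 and 0.31). The other measured genes, Scn10a, Nefm, Rbfox3 and Isl1, overlapped, with differences of -2.03, -0.94, -0.12 and 1.61 points. The share of all gene sums without overlap was not counted. The list's median was -2.03 points, against -0.79 over all genes. The 4 measured genes of satellite glia had a median of 2.02 points and overlapped between the groups. Of the Schwann cell list 3 of 8 genes had 18 sites, 1 called lower, that of Egr2, and a median of -1.01 points. Satellite glia (34 sites of 4 of 6 genes), macrophages and lymphocytes (11 sites of 4 of 9 genes) and fibroblasts and vessels (23 sites of 6 of 8 genes) had 0 called sites. Sites under a promoter flag were measured for Apoe, at 2.41% after SNL and 2.02% after Sham, and for Pdgfrb, at 3.45% and 3.14%. The part of the mix of cells in the differences above was not tested.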

How the data were processed

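Per the submitters' processing notes, Bismark 0.18.1, Bowtie2 and methylKit 1.3.3 were used, with the assembly rn4. The labels' protocol names a human assembly instead. The files of the single libraries hold, as deposited, the read count at each CpG cytosine and the C and T percent. The authors' table holds sites with 100 or more reads in all 6 libraries, with percent methylation, a p-value and q-value, and the authors' difference and annotation. How that test was set is not given in the sources used here.

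Methylated counts were computed as coverage times percent. Each site was fitted by logistic regression on group; the Pearson overdispersion over 4 residual degrees of freedom was moderated with limma's squeezeVar, kept at 1 or above, and tested by a two-sided F test with Benjamini-Hochberg adjustment over the whole table. A read over several sites enters a gene's sum several times. Differences are between means of library percents. Gene symbols came from RefSeq (GRCr8, names only), matched for 7627 of 8123 transcripts. Named are, per gene, the site nearest the start and that with the lowest p, and for the other lists genes with a called site, otherwise those with the lowest p in the sums; any further sites were picked with their values in view. The members and lists were chosen with earlier results of these data known. Alternatives were other tests, scalings, coverage minimums, windows and samples. Fits ran in R 4.3.3 (limma 3.58.1). Figures and sequence matches were made in Python 3.11.15 using matplotlib 3.10.9 and pandas 2.3.3.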

Additional observations from a re-analysis of the deposited data

How the results depend on the processing

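The count of called sites and genes among the 6 measured genes was 0 under every alternative run with a test of read counts or logit values, and 1 with the authors' deposited q-values. The unmoderated test, limma on logit values for sites and the test over sites with 10 reads called 0 over their whole tables, so they say nothing about stability. For the 10 sites and 6 gene sums named, 211 of 225 alternative values kept direction and side of the threshold, 13 changed sign and 1, the Klf6 site at 75625371, was past it (authors' q = 0.0248). Values here are differences of pooled read shares in points, except with an offset per library, a replicate block or limma. With the offset or block they are differences fitted by the model, and with limma differences between mean percents. A change of sign there is thus also a change of measure. The Gap43 site at 59934370 (0.98) ranged from -0.42 (without SNL 1) to 2.34 with a library left out, and the Sox11 site at 45144503 (0.42) from -0.44 (without SNL 2; -0.01 without Sham 2) to 0.91. The Gap43 sum (-0.75) was at 0.05 with an offset per library. The Klf6 sum (0.49) ranged from -1.82 (without Sham 1; -0.56 without SNL 1) to 2.46. The Klf4 sum (-0.38) was at 1.26 with the offset, from -3.47 to 1.64 with a library left out (0.82, 1.64 and 0.39 without SNL 3, Sham 2 and Sham 3), and at 0.88 within 10 kb of the start. The Sox11 sum (2.01) was at -1.08 within 10 kb and -0.81 as the mean of site percentages with limma. The cause was not tested.

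Of the other pathway genes 0 were called in the sums. With the offset 2 were called in opposite directions, Nrcam at -7.43 points and Ncam1 at 6.44. Within 10 kb 2 were called, again in opposite directions, Fosb at 1.8 points and Spag9 at -10.19. With 1 library left out from 0 to 3 were called, the 3 being Gfra1, Nrcam and Cacna2d1, all lower, without SNL 1. Over all annotated sites 441 were called, 369 with the offset, 236 at 200 reads, from 118 (without Sham 3) to 496 (without SNL 1) with a library left out, and 0 without moderation or with limma. Of the sites with 10 or more reads 0 were called, 9 at 20 reads, 236 at 30 reads and 958 with the refitted moderation. Over all gene sums 43 were called, from 3 to 74 with a library left out, 0 without moderation, 6 with limma on logit values and 24 with limma on site percentages. Correlations of the deviations of same-numbered libraries were -0.055, 0.256 and -0.135. Those of the other pairs ran from -0.293 (SNL 2 with Sham 1) to 0.341 (SNL 3 with Sham 1). The numbers need not follow animals, so whether libraries share an animal was not determined. With the number as a replicate block 0 sites and 0 genes of the members and 0 other pathway genes were called. The whole tables then had 156 called sites and 10 called genes, and 4 of the 12 called pathway sites were kept. With the offset per library 8 of these 12 were kept. The block turned no sign of a named value. Depth limits the shallow positions most, where 1 read of 10 moves a level by 10 points.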
